A study of Mus musculus with 48 samples.

Results

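The late risers are genes whose expression stayed near its starting level for the first day of differentiation and then climbed, in mouse embryonic stem cells with either of 2 sex chromosome sets, XO or XY. A gene was chosen when its mean over the late arrays (66, 72 and 84 h in XO; 72 and 84 h in XY) was at least 1.5 log2 units above the 0 h mean of the same line, in both lines. Its mean over the early arrays (6, 12, 18 and 24 h in XO; 8, 16 and 24 h in XY) also had to lie within 0.5 log2 units of 0 h in both. Of 22745 genes, 559 met the late condition, and 178 of these met the early one too. The XX arrays took no part in the choice, so XX is the line in which the pattern could be tested.

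Expression was measured with Affymetrix Mouse Exon arrays, which hybridise labelled copies of a cell population's RNA to probes for each gene. The XX and XO cells are Pgk12.1 lines and the XY cells are the line E14, so XY differs from the others in line as well as in its chromosomes. All cells were kept in N2B27 medium with a Gsk3 inhibitor (CT-99021), a Mek1 inhibitor (PD-0325901) and LIF, and then seeded on fibronectin in N2B27 with Activin A and basic Fgf. Untreated cells were sampled at 0 h only, so a change with time holds both the new medium and the time in culture. The labels do not say whether a line is 1 clone, nor whether the arrays of a course came from separate cultures.

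Naive embryonic stem cells, held by those inhibitors and LIF, resemble the epiblast before implantation. Activin A and Fgf carry them towards the state of epiblast stem cells, which resemble the epiblast after implantation and are called primed. In culture this change runs in steps, with naive factors lost first and genes of the primed state and of early lineages gained over the following days. Female cells enter it with a pair of active X chromosomes, and the presence of both is known to hold back their exit from the naive state.

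The table holds 18 XX, 19 XO and 10 XY arrays with values in log2 units. Precision is set by how many arrays there are. XX was sampled at 16 times, XO at 17 and XY at 9. Letters A and B mark 2 arrays each at 0 h in all lines and at 36 h in XX and XO, and every other time has 1 array. Array medians lay between 6.80 and 7.10. The genes carry Ensembl identifiers that the tables used here do not pair with symbols, and 0 of 22745 could be matched. No gene is therefore named and no role is given, and markers of naive, primed or other cells were not examined. Only 4 identifiers are printed, the 2 late risers with the largest rise in XX and the 2 with the lowest XX value.

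In XO and XY, the values that chose the genes are a description and carry no test. The late change ran from 1.501 to 5.58 log2 units in XO with a median of 2.16, and from 1.501 to 5.58 in XY with a median of 2.32. These medians correspond to 4.46-fold in XO and 4.98-fold in XY. A late change of at least 3 log2 units was seen for 29 genes in XO and 45 in XY. The early change had a median of 0.10 in both lines. Just inside the late threshold, the smaller of the XO and XY changes was 1.500597 and 1.500948 for 2 genes, and just outside it was 1.499998 and 1.499667. Just inside the early threshold, the larger of the XO and XY early changes was 0.498 and 0.493, and just outside it was 0.5002 and 0.5005.

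The median over the genes rose across many intervals and not in 1. In XO the median change over the 178 genes was -0.014 at 6 h, -0.062 at 12 h, 0.077 at 18 h and 0.34 at 24 h. It then stood at 0.52 at 28 h, 0.61 at 32 h, and 0.68 and 0.82 in the 36 h arrays A and B. The median reached 1.00 at 40 h, 1.44 at 44 h and 1.52 at 48 h, so most of the first rise fell between 24 and 44 h. After a lower value of 1.38 at 52 h it was 1.62 at 56 h, 1.65 at 60 h, 1.83 at 66 h, 2.30 at 72 h and 2.40 at 84 h. The XO arrays at 52 and 60 h also had the narrowest interquartile ranges over all genes, at 2.81 and 2.77 log2 units against 3.21 at 72 h, and the part of this in the result was not tested. Between 66 and 72 h the share of all genes at least 1 log2 unit above 0 h moved as well, from 6.48% to 9.81%.

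The XY course, with fewer times, had a median of 0.015 at 8 h, 0.0003 at 16 h and 0.31 at 24 h. It was 0.53 at 32 h, 1.52 at 48 h, 1.73 at 60 h, 2.40 at 72 h and 2.30 at 84 h. XO and XY thus had nearly the same median at each time they share after 0 h, namely 24, 32, 48, 60, 72 and 84 h. The rule used the arrays at 24, 72 and 84 h in both lines, so the likeness at those times is partly built in.

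**Figure D1:**
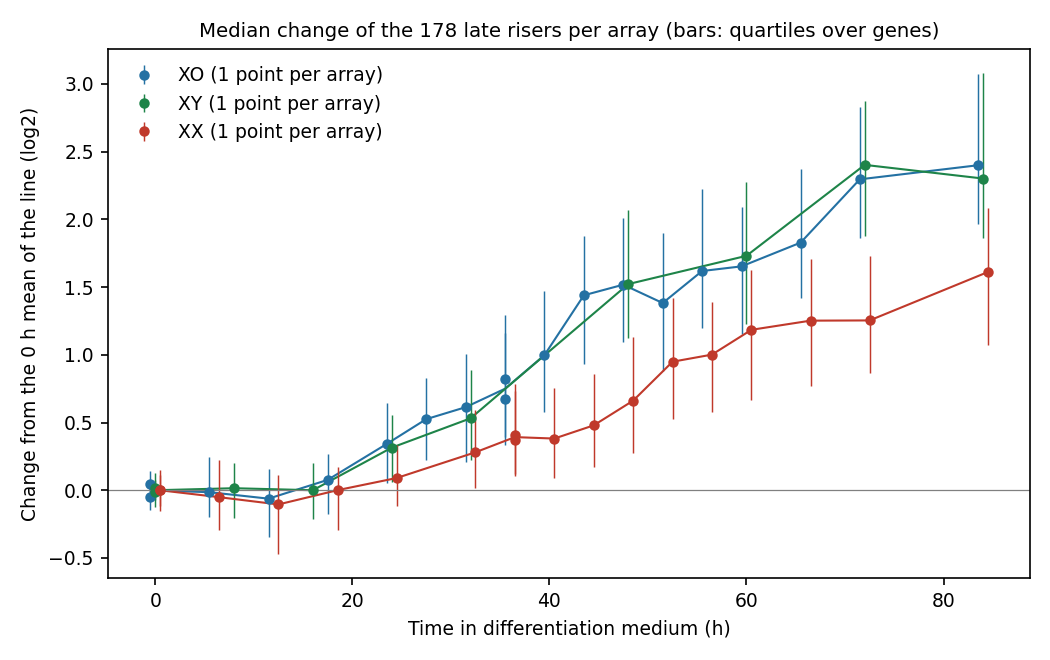
Median change of the 178 late risers from the 0 h mean of the same line (log2, vertical axis) against hours in differentiation medium (horizontal axis). Each point is 1 array, bars span the quartiles over genes, lines join the means per time, and XX (red) ends at 1.61 at 84 h against 2.40 in XO (blue) and 2.30 in XY (green).

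The XO and XY arrays from 28 to 60 h were not used for the choice. Genes chosen to be near 0 h through 24 h and raised from 66 or 72 h must rise at some time in between, so the choice favours calls here, and the counts describe when the rise came and do not support that it occurred. Between 28 to 36 h and 52 to 60 h, XO expression rose for 117 of 178 late risers, or 65.7%, where 8.23% of all genes were called higher (limma, Benjamini-Hochberg adjusted p under 0.05). None was called lower, at an unadjusted p under 0.05 as well, against 15.7% of all genes. The median difference was 0.83 log2 units over the late risers and -0.0086 over all genes. With quantile normalization, 11.02% of all genes were called higher and 12.1% lower, and 123 late risers were higher. With 40 to 48 h in place of 52 to 60 h, a comparison added after the data were seen, 49 late risers were called higher, beside 1.02% of all genes.

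In XY, the mean of 48 and 60 h was compared with the single 32 h array. That array was assumed to vary like those of the other windows, and the counts below have no replicate check on it. Here 85 of 178 late risers rose, where 5.32% of all genes were called higher, and none was called lower, at an unadjusted p under 0.05 as well, against 2.30% of all genes. The median difference was 1.13, against 0.032 over all genes. With quantile normalization, 4.21% of all genes were called higher and 3.29% lower, and 82 late risers were higher. The XY 32 h array has a narrow interquartile range of 2.86, and its part in these counts was not tested.

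In XX cells, which had no part in the choice, 140 of 178 late risers (78.7%) rose from 0 h to the window of 66, 72 and 84 h, where 8.95% of all genes were called higher (limma, adjusted p under 0.05). For 124 of them the rise was at least 1 log2 unit. None was called lower, with 1 lower at an unadjusted p under 0.05, while 9.16% of all genes were called lower. The median change was 1.37 log2 units with quartiles of 0.95 and 1.804, a fold of 2.59, and the median over all genes was 0.016. For 166 genes, or 93.3%, the 3 late arrays all lay above both 0 h arrays, against 23.6% of all genes. The count was 123 without the XX 0 h array A (6.35% of all genes) and 118 without B (5.97%). A higher value in a cell population can mean more cells that express a gene or more RNA in each cell, and bulk arrays cannot tell these apart.

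In the early phase few late risers, and few of all genes, passed the test in XX. From 0 h to 6 to 24 h, 4 late risers were called higher and 6 lower in XX, or 2.25% and 3.37%, where 3.32% and 7.04% of all genes were called (limma, adjusted p under 0.05). Their median change was 0.017, with quartiles of -0.27 and 0.19. At 12 h the XX median was -0.10 and the lower quartile -0.47, below the XO quartile of -0.34 at the same time. Measured from the early window in place of 0 h, and so without the 0 h arrays, the late XX window was called higher for 154 genes, where 11.9% of all genes were called, and lower for 1, where 7.50% were. The median of that difference was 1.42. With array medians subtracted, 149 late risers were higher, where 9.94% of all genes were called higher and 10.8% lower.

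In XX the number of called genes grew most between the windows of 40 to 48 h and 52 to 60 h. Against 0 h, 35 late risers were called higher at 28 to 36 h (7.16% of all genes), 50 at 40 to 48 h (7.07%), 115 at 52 to 60 h (9.90%) and 140 at 66 to 84 h. The XX medians were 0.34, 0.51, 1.03 and 1.37 log2 units in these windows. Of the 35 genes called at 28 to 36 h, 33 were called again at 66 to 84 h, and all 50 called at 40 to 48 h were. The first window with a call was 6 to 24 h for 4 genes, 28 to 36 h for 31, 40 to 48 h for 20, 52 to 60 h for 60 and 66 to 84 h for 32, and 31 genes were called in no window. Every window was compared with the same XX 0 h arrays, so repeated calls are not independent of each other. No share over all genes was taken for repeated or first calls. The count at 28 to 36 h was 23 without the XX 0 h array A (6.00% of all genes) and 12 without B (3.00%). The count at 40 to 48 h was 33 without B (3.56%). These smaller counts rest on both 0 h arrays, as do the shares of all genes, which fell too. Called lower were 2 genes at 28 to 36 h (7.93% of all genes), 2 at 40 to 48 h (10.4%) and 1 at 52 to 60 h (8.20%). With array medians subtracted, the shares of all genes at 28 to 36 h were 6.07% higher and 10.3% lower, and 31 late risers were higher.

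Array by array, the XX median change was 0.28 at 32 h, 0.41 and 0.37 in the 36 h arrays A and B, 0.38 at 40 h, 0.48 at 44 h and 0.66 at 48 h. It was 0.95 at 52 h, 1.00 at 56 h, 1.18 at 60 h, 1.25 at 66 h, 1.25 at 72 h and 1.61 at 84 h. The largest step between neighbouring XX times up to 72 h thus lay between 48 and 52 h. The last XX array had a median close to those of XO at 56 and 60 h.

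**Figure D2:**
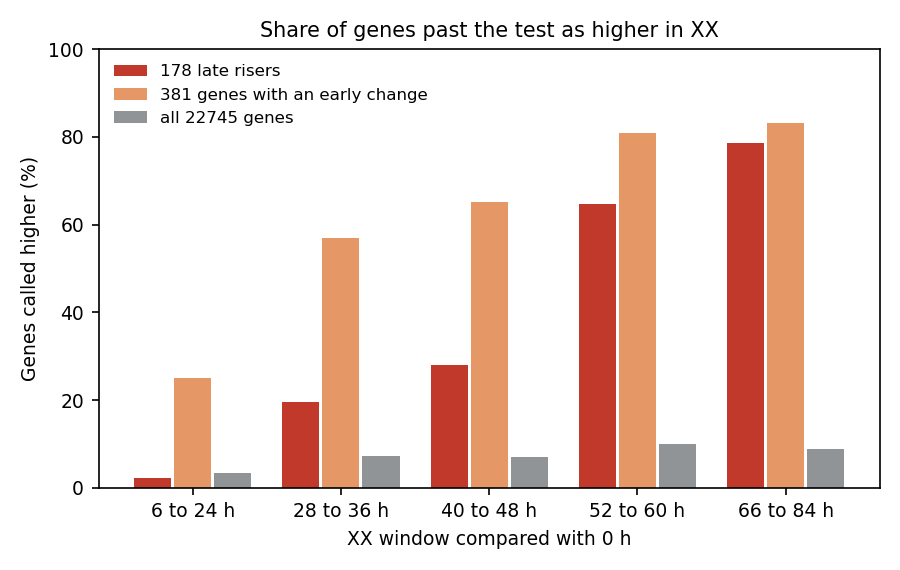
Percent of genes called higher than at 0 h in XX (vertical axis, from 0 to 100%) for 5 time windows, for the 178 late risers, the 381 genes with the same late rise in XO and XY but an early change of 0.5 log2 units or more in either, and all 22745 genes. The late risers go from 2.25% at 6 to 24 h to 78.7% at 66 to 84 h, and the share of all genes stays between 3.32% and 9.90%.

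The nearest set of genes gave other shares in the early XX windows. It holds 381 genes that met the same late condition in XO and XY but moved by 0.5 log2 units or more in the early phase of either line. In XX, 95 of them (24.9%) were called higher at 6 to 24 h, against 2.25% of the late risers, and 57.0% against 19.7% at 28 to 36 h. At 66 to 84 h the shares were 83.2% and 78.7%. The medians at 66 to 84 h were 1.72 over the 381 genes and 1.37 over the late risers. The difference between both sets was not tested, since both were chosen on related values.

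Gene by gene, the XX change was smaller than the XO change for 161 of 178 late risers and smaller than the XY change for 163. Medians were -0.89 log2 units for the XX change less the XO change and -1.09 for the XX change less the XY change. A gene's XX change was in the median 61.6% of its XO change, with quartiles of 40.0% and 83.1%, and it was below 50% for 61 genes and at least 100% for 17. The XY change was in the median 105% of the XO change. The late mean includes 66 h in XX and XO but not in XY, and the part of this in the comparisons with XY was not tested. Since the rule asked for a large change in XO and XY and not in XX, a smaller value in XX can come from the choice alone, and no test is given. The XX arrays at 0 h and XO arrays at 0 h differed by a median of only 0.049 over these genes, while XX lay above XY by a median of 0.20.

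**Figure D3:**
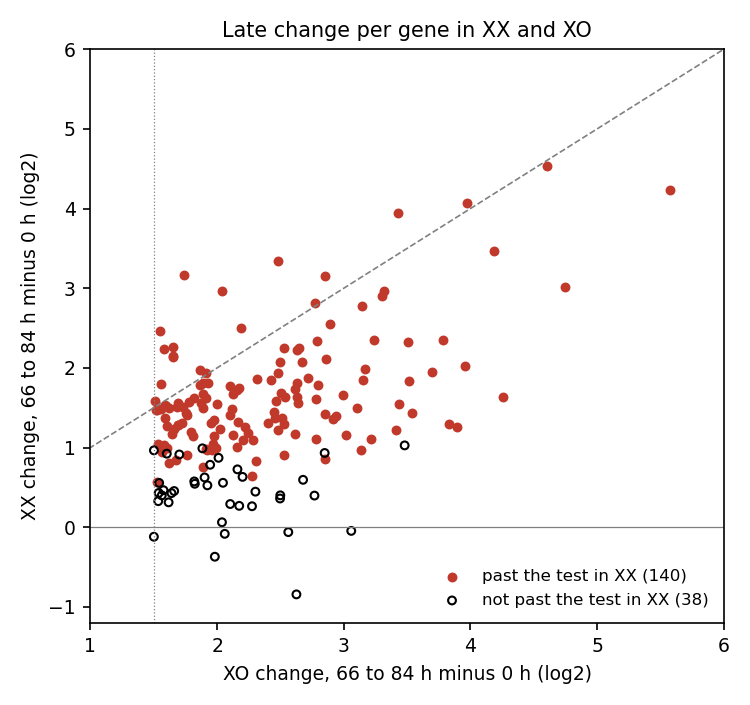
Late change from 0 h in XX (vertical axis, log2) against that in XO (horizontal axis, log2) for each of the 178 late risers. Filled points are the 140 genes past the test in XX, open points the other 38, the dashed line marks equal change and the dotted line the threshold of 1.5, and 161 points lie below equal change.

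Levels at times the rule did not use gave a test of XX against XO. At 52 to 60 h, 62 late risers were lower in XX than in XO (34.8%), where 7.94% of all genes were called lower, and 12 were higher (6.74%), where 19.0% were called higher (limma, adjusted p under 0.05). The median XX minus XO level was -0.35 log2 units over the late risers and 0.027 over all genes. The shares of all genes moved with the scaling. They were 12.8% lower and 15.9% higher with array medians subtracted, and 13.3% and 13.8% with quantile normalization, and 72 late risers were lower under each. Without the XO 60 h array 49 late risers and 4.42% of all genes were lower, and without the XX 52 h array 45 and 3.92%. At 40 to 48 h, a window added after seeing the data because the XO arrays at 52, 56 and 60 h have a narrow range, 81 were lower and 1 higher, where 6.25% and 6.89% of all genes were called, and the median level difference was -0.68. The choice of genes that rise in XO favours a lower XX level at neighbouring times, and the part of this was not tested. At 28 to 36 h the median level difference was -0.15 and at 66 to 84 h it was -0.73.

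The time of the rise was also taken per gene, as the first time at which the line between neighbouring time points crossed 50% of the gene's mean late change in the same line. This is a description. In XO the median of these times was 40.3 h with quartiles of 34.1 and 44.9 h, and in XY it was 42.5 h with quartiles of 38.5 and 47.7 h. In XX it could be given for the 125 genes with a late change of at least 1 log2 unit, with a median of 46.2 h and quartiles of 30.7 and 51.3 h. Among these genes XX crossed later than XO for 82 and earlier for 43, with a median difference of 5.03 h. Against XY it was later for 67 and earlier for 58, with a median of 1.804 h. The spread in XX was wide, with 19 genes before 24 h, 43 between 48 and 60 h and 7 from 60 h. Each line's own late change sets its mark, so a lower end in XX brings its times forward. The rule also held back early crossings in XO and XY but not in XX. Since the first crossing counts, 1 array with a high value can set the time.

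Within the list, genes differed in when they rose. In XO, 10 genes crossed before 24 h, 50 between 24 and 36 h, 82 between 36 and 48 h, 29 between 48 and 60 h and 7 from 60 h. In XY these numbers were 5, 28, 104, 22 and 19, with no XY array between 32 and 48 h. Values at 28 to 36 h in XO had a median of 30.9% of the late change, values at 40 to 48 h 57.8%, and values at 52 to 60 h 70.2%. In XY these shares were 20.5% at 32 h, 65.1% at 48 h and 72.1% at 60 h.

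**Figure D4:**
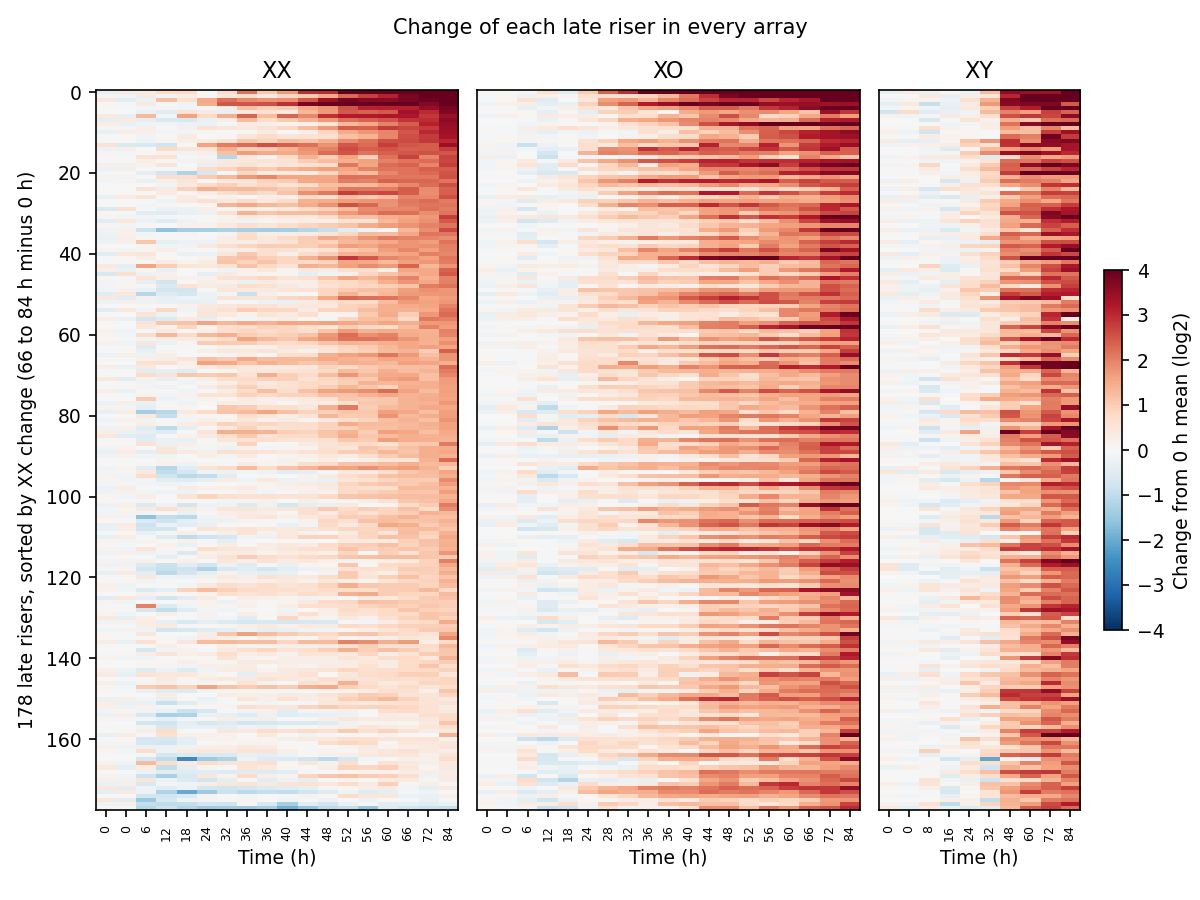
Change of each of the 178 late risers (rows, sorted by XX change) from the 0 h mean of its line in every array (columns, labelled in hours), with red for higher and blue for lower on a log2 scale that is cut at 4 in both directions. XX columns are paler than XO and XY columns at late times, and the lowest rows in XX are blue or white.

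The 2 identifiers with the largest XX rise were followed over time. Both were picked for that rise, so the choice favours their small p-values for it in XX. ENSMUSG00000024479 stood at 4.41 and 4.23 log2 units in the XX 0 h arrays A and B and at 4.21 to 4.68 from 6 to 24 h. It was 5.15, 5.37 and 5.81 at 40, 44 and 48 h, then 6.58, 7.06 and 7.41 at 52, 56 and 60 h, and 8.07, 8.52 and 9.07 at 66, 72 and 84 h. No XX array from 40 h on overlapped the 0 h arrays, and each array from 40 h on was higher than the one before. In XO the level was 4.37 and 4.52 at 0 h, 8.38 to 9.17 at 52 to 60 h and 9.57, 10.04 and 10.45 at 66, 72 and 84 h. In XY it was 4.29 and 4.31 at 0 h, 4.80 at 32 h, 7.35 at 48 h, 8.27 at 60 h, 9.53 at 72 h and 10.24 at 84 h.

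The XX rise of ENSMUSG00000024479 from 0 h to 66 to 84 h was 4.23 log2 units (SE 0.35, limma adjusted p = 8.89e-11). It was still not called at 28 to 36 h (0.48, limma adjusted p = 0.425) and was called at 40 to 48 h (1.12, limma adjusted p = 0.0203). Between 28 to 36 h and 52 to 60 h XO rose by 3.51 (SE 0.29, limma adjusted p = 1.30e-10), a rise that the rule favours. At 52 to 60 h its XX level was 7.01 ± 0.42 (SD, n = 3) against 8.84 ± 0.41 in XO (SD, n = 3), a difference of -1.82 (SE 0.31, limma adjusted p = 3.39e-05). The choice of genes that rise in XO favours the sign of this difference too. Of all late risers it had the largest difference between late and early XX windows (4.08) and between 28 to 36 h and 52 to 60 h in XO.

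ENSMUSG00000029561 rose in XX from 3.86 and 4.53 at 0 h to 8.67, 8.62 and 8.91 at 66, 72 and 84 h, a change of 4.54 (SE 0.52, limma adjusted p = 4.57e-08). Its XX arrays at 36 h were 6.35 in A and 5.28 in B, further apart than the pair at 0 h, and it stood at 7.14 at 44 h and 8.33 at 52 h. In XO it came on sooner, at 6.08 at 24 h, 7.39 at 28 h, 7.98 at 32 h and 9.59 and 9.02 at 36 h, and it stayed between 9.15 and 10.21 from 40 h on. In XY it was 5.66 at 32 h, 8.01 at 48 h, 7.83 at 60 h, 7.78 at 72 h and 9.81 at 84 h. The rise in XO was thus nearly complete at 40 h, when XX stood at 5.89. At 52 to 60 h the XX minus XO level was -1.28 (SE 0.46, limma adjusted p = 0.0379), a sign that the choice of genes favours.

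**Figure D5:**
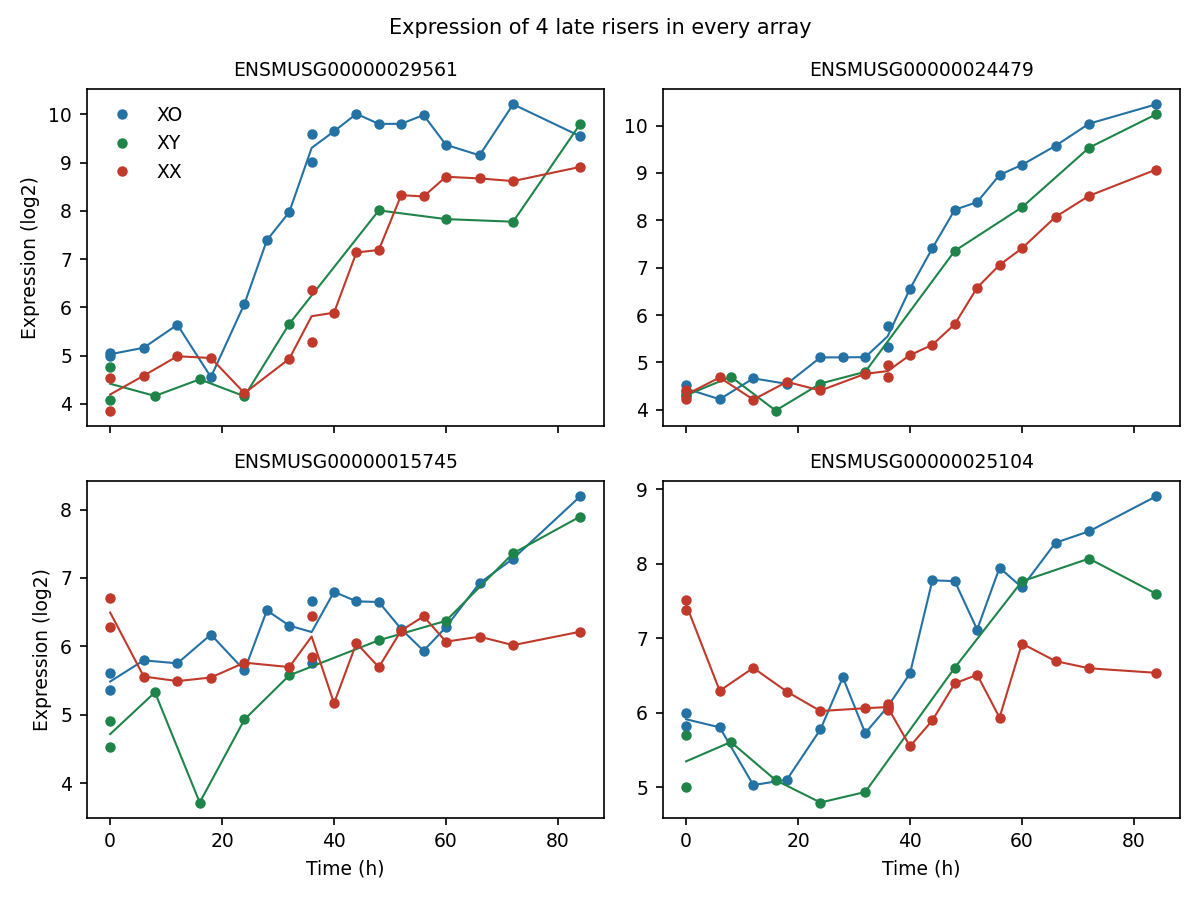
Expression (log2, vertical axes) of the 4 printed identifiers in every array against time in hours, with XX in red, XO in blue and XY in green, 1 point per array and lines through the means per time. The upper pair rise in all lines, to 8.91 and 9.07 in XX at 84 h, and the lower pair end in XX at 6.21 and 6.54, below their XX 0 h arrays.

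A group of 38 late risers did not pass the late test in XX. Their XX changes ran from -0.84 to 1.03 with a median of 0.45, and 6 were below 0. Their XO and XY late changes, with medians of 2.00 and 2.14, were close to those of the 140 genes that passed, at 2.21 and 2.39. Their XX levels at 0 h lay above those of the other lines in the median. At 0 h the XX minus XO level had a median of 0.38 and the XX minus XY level of 0.51 over the 38 genes, against 0.0038 and 0.11 over the 140. For 28 of the 38 the XX 0 h mean lay above both other lines, as for 60 of the 140. The 0 h level enters the XX change with a minus sign, so this split is partly built in. At 6 to 24 h, in XX arrays that do not enter that change, the XX minus XO median was 0.15 over the 38 genes and -0.091 over the 140. At 66 to 84 h these medians were -1.06 and -0.58.

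ENSMUSG00000025104 had the lowest XX value of the list. In XX it stood at 7.52 and 7.39 at 0 h, at 6.02 to 6.60 from 6 to 24 h, and at 6.69, 6.60 and 6.54 at 66, 72 and 84 h. All late XX arrays were thus below both 0 h arrays. The change at 66 to 84 h was -0.84 (SE 0.33, limma adjusted p = 0.0781), which did not pass, and with array medians subtracted it was -0.90 (limma adjusted p = 0.0448), which did. It was lower than at 0 h at 6 to 24 h (-1.15, SE 0.31, limma adjusted p = 0.0138), at 28 to 36 h (-1.38, limma adjusted p = 0.00317), at 40 to 48 h (-1.50, limma adjusted p = 0.00108) and at 52 to 60 h (-0.99, limma adjusted p = 0.0320). In XO it went from 6.00 and 5.82 at 0 h to 8.28, 8.44 and 8.90 at 66, 72 and 84 h, and in XY from 5.70 and 5.00 to 8.07 and 7.60 at 72 and 84 h. XX therefore began above the other lines and ended below them, and at 52 to 60 h its XX minus XO level was -1.12 (SE 0.30, limma adjusted p = 0.00472). The gene was picked for the lowest XX change, which favours a high 0 h level and a low end in XX. Its p-values against 0 h share those 0 h arrays, and the rise in XO that the rule asked for favours a lower level in XX.

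ENSMUSG00000015745 was 6.28 and 6.71 in the XX 0 h arrays A and B and 6.14, 6.02 and 6.21 at 66, 72 and 84 h. All XX arrays after 0 h lay between 5.17 and 6.44, and the late change of -0.37 did not pass (SE 0.33, limma adjusted p = 0.539). In XO it was 5.61 and 5.36 at 0 h, 5.93 to 6.28 at 52 to 60 h and 6.92, 7.28 and 8.19 at 66, 72 and 84 h, so the late mean rests on the last times and most on 84 h. In XY it went from 4.91 and 4.52 to 7.36 and 7.90, with a single low array of 3.72 at 16 h. From 28 to 36 h to 52 to 60 h the XO difference was -0.16 (limma adjusted p = 0.726), which did not pass.

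Genes with the strongest rise in XO and XY kept a rise in XX. The 20 late risers with the highest value of the smaller of both changes had 3.06 to 5.58 log2 units there. All 20 were called higher in XX at 66 to 84 h, beside 8.95% of all genes, with XX changes of 1.10 to 4.54 and a median of 2.34. Their XX change was in the median 63.0% of the XO change, close to the 61.6% of the whole list.

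XO and XY also differed from each other in part of the list. The XY change exceeded the XO change by at least 1 log2 unit for 15 genes, and the XO change exceeded the XY change by as much for 5. The late mean includes 66 h in XO but not in XY. The XO median was 1.83 at 66 h against 2.30 at 72 h and 2.40 at 84 h, which favours a larger XY change. Its part in these counts was not tested. At 28 to 36 h the XY minus XO level had a median of -0.37, at 40 to 48 h 0.041, at 52 to 60 h 0.037 and at 66 to 84 h 0.033. The first of these values sets the single XY array at 32 h, with its narrow range, against 4 XO arrays from 28 to 36 h. The values at 40 to 48 h and 52 to 60 h set the single XY arrays at 48 and 60 h against XO means over the whole windows. The last sets XY at 72 and 84 h against XO at 66, 72 and 84 h. The times are therefore not matched.

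Most late risers began below the middle of the array scale. At 0 h, 158 of 178 in XO, 158 in XY and 147 in XX lay below the array median, and at 66 to 84 h 39, 31 and 81 did. Probes differ in brightness, so these counts do not rank transcripts, but near the floor of an array a change is compressed and can be understated. The commercial mouse reference RNA, a single array of pooled RNA hybridised beside the cells, gave a reading outside this course. It lay above the 0 h means of all 3 lines for 111 late risers (62.4%), against 29.4% of all genes, and by at least 1 log2 unit for 64 (36.0%), against 7.76%. A rule that asks for a rise favours low 0 h values in XO and XY, and its part in these shares was not tested. For 31 genes the reference exceeded the late means of all 3 lines, and for 47 it lay below all 0 h means. No share over all genes was taken for either count. For ENSMUSG00000024479 it read 4.22, near the 0 h level of the cells, and for ENSMUSG00000029561 it read 8.81.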

How the data were processed

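The deposited table holds log2 expression values for Ensembl genes. The authors used RMA and affy for them, as listed in the submitters' processing notes. RMA removes background, makes the arrays' distributions alike and combines the probes of a gene. Which versions, probe annotation and genome build were used is not given in the sources used here. All 47 cell arrays were fitted with limma 3.58.1 in R 4.3.3 (lmFit, eBayes, two-sided), with 1 mean for each of 18 combinations of line and time window, 29 residual degrees of freedom, a prior of 4.03 and Benjamini-Hochberg adjustment over 22745 genes. No filter on low values was applied. Neighbouring times stand in for replicates within a window, so the p-values rest on a spread that holds technical noise and change with time. On simulated data with 22745 genes, 100 XX changes each of 0.5, 1 and 1.5 log2 units were set. For 66 to 84 h against 0 h, 12%, 57% and 88% of these were recovered, with 11 false calls. In the arrays, far more genes were called in this comparison, 2035 higher and 2084 lower. The adjustment depends on how many genes change, so these rates do not carry over to the calls reported here. Recovery with as many changes as in the arrays was not tested. The genes, lists and tests were chosen with earlier results of these data known. The gene lists need symbols and were not used. Identifiers were picked by the size of the XX change. Letters A and B were not taken to pair samples: of 10 correlations of A minus B between conditions, 2 exceeded 0.1 (range -0.13 to 0.19).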

Additional observations from a re-analysis of the deposited data

Results flagged for a closer look

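In 2 late risers, ENSMUSG00000025104 and ENSMUSG00000015745, every late array lay below 0 h in XX and above 0 h in XO and XY. Their XX arrays at 66, 72 and 84 h all lay below both XX arrays at 0 h, while the late XO and XY arrays all lay above the 0 h arrays of their line. In XX both genes were already lower at 6 to 24 h, with means of 6.30 and 5.59 against 7.45 and 6.49 at 0 h. The XX differences from 6 to 24 h to 66 to 84 h were 0.31 and 0.54. Neither passed (limma adjusted p = 0.529 and 0.200). Over all genes, 22.0% have the 3 late XX arrays below both 0 h arrays, and 2 of 178 late risers do. The difference between the lines was not tested, because the rule used the XO and XY changes.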

How the results depend on the processing

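Subtracting array medians, quantile normalization, a trended robust prior, the replicate block of letters A and B, and leaving out the arrays of narrow range each kept the counts of called late risers within 1.5 times, while the first 2 of these raised the share of all genes lower in XX than XO by more. For XX at 66 to 84 h the count of 140 became 138, 139, 140, 139 and 139 in that order, and 138 with 72 and 84 h as the late window. The narrow arrays left out were all XO or XY, so their omission could alter only the spread in the XX comparisons and not the XX changes. The comparisons that use XO at 52 to 60 h or XY at 32 h could not be run without the narrow arrays. The median XX change of 1.37 ranged from 1.28 to 1.44 over its 12 alternatives. The trended prior and the omission of narrow arrays could not move this median. A late window of 72 and 84 h gave the same values as leaving out XX 66 h. Among the 59 late risers whose mean exceeds the median gene mean, calls higher than at 0 h in XX numbered 2, 11, 19, 39 and 45 over the 5 windows, beside 5.24%, 9.75%, 9.98%, 14.2% and 11.5% of the brighter genes tested. At 6 to 24 h 3 were lower (11.2%), and 53 were higher late than early (17.7%). In the same subset 41 rose in XO (9.09%), 38 in XY (11.02%), and 18 were lower (8.88%) and 4 higher (33.3%) in XX than XO. These counts are smaller because fewer late risers were tested. Leaving out 1 array of either window compared gave 118 to 141 calls for XX at 66 to 84 h, 85 to 107 at 52 to 60 h, 33 to 51 at 40 to 48 h and 12 to 29 at 28 to 36 h. The lowest of each came without the XX 0 h array B. There 5.97%, 5.71%, 3.56% and 3.00% of all genes were called higher, in that order. The omissions of XX arrays from 32 to 60 h were added after seeing the data. At 6 to 24 h leaving out 1 array gave 2 to 6 higher and 0 to 8 lower calls, with 2 higher without XX 24 h. It gave 142 to 156 for late against early XX, 93 to 114 for XO, and 45 to 59 lower and 8 to 12 higher for XX against XO. Windows added after seeing the data gave 49 in XO at 40 to 48 h (1.02% of all genes). For XX against XO at 40 to 48 h they gave 81 lower (6.25%) and 1 higher (6.89%). In XY, 48 h less 32 h, 1 array against 1, had a median of 1.05 over the late risers and 0.0005 over all genes. A late threshold of 1.2 gave 308 genes, of which 68.5% were called higher in XX at 66 to 84 h, and 1.8 gave 111, of which 79.3% were. The other 6 forms of the rule gave 75.6% to 80.5%. The number of arrays limits what can be called.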
